A study of Homo sapiens with 12 samples.

Results

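The genes described here are 10 members of the TGF-beta and activin system, taken by symbol from the expression table: the ligand genes TGFB1, TGFB2, TGFB3, INHBA, INHBE and MSTN, the binding protein genes LTBP1 and LTBP2, the antagonist gene FST, and TGFBI. They are 10 of the 65975 gene identifiers in the table, and each of the 10 symbols matched 1 identifier. The RNA came from a pair of rhabdomyosarcoma cell lines, RD for the fusion-negative subtype (FN-RMS) and Rh30 for the fusion-positive subtype (FP-RMS). Each line was stably transduced with a control, non-targeting Scrambled shRNA (Scramble) or with KDM3A-sh2, an shRNA against the histone demethylase KDM3A, which gave 4 groups of 3 libraries. Cells of every group, the controls included, were selected with 1 µg/ml puromycin. RD was grown in DMEM and Rh30 in RPMI, and each subtype was represented by 1 line. Line, subtype and medium therefore cannot be told apart. Each knockdown was made with 1 shRNA, so the loss of KDM3A and other effects of that shRNA cannot be told apart either. None of the sources states that the replicates of a group were grown as separate cultures. The deposited names of the 3 Rh30 Scramble libraries all end in 1, while the names in each other group end in 1 to 3. What the repeated ending means is not stated. The p-values therefore measure the spread between these libraries, which may be technical.

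TGF-beta is secreted in a latent form, in which the growth factor stays wrapped in its own propeptide and is tethered to the extracellular matrix through latent TGF-beta binding proteins until integrins, thrombospondin or proteases release it. Activins are dimers of inhibin beta subunits, and myostatin is a related ligand that restrains skeletal muscle growth. Follistatin binds activins and myostatin outside the cell and keeps them from their receptors. Ligands of this family signal through pairs of receptor kinases to SMAD2 and SMAD3. In muscle precursors TGF-beta and myostatin are known for holding back differentiation, the process that rhabdomyosarcoma cells fail to complete.

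Levels are given as FPKM, fragments mapped to a gene, scaled by the length of its transcript and by the fragments of the library, so that genes can be compared. The sum of FPKM per library ran from 1198300 to 1379200, and 17473 to 17983 genes reached 1 FPKM. FPKM hold no read totals, so the depth behind a value is unknown. Relative depth, estimated roughly from steps among low values, was 0.866 to 1.20 times that of the median library. KDM3A itself averaged 33.5 ± 2.50 FPKM (SD, n = 3) with Scramble and 12.2 ± 1.09 with KDM3A-sh2 in RD, and 29.7 ± 2.14 and 14.1 ± 1.15 in Rh30, with no overlap between groups in either line. Of 7 muscle and rhabdomyosarcoma markers (MYOD1, MYOG, DES, MYF5, FGFR4, PAX3, PAX7), 6 reached a mean of 1 FPKM in RD and 5 in Rh30. Their summed FPKM per library was 1170 to 1326 in RD Scramble, 1276 to 1366 in RD KDM3A-sh2, 2269 to 2556 in Rh30 Scramble and 2805 to 2858 in Rh30 KDM3A-sh2, and MYF5 was listed at 0 in every library of all groups but RD Scramble. The summed markers of epithelium, leukocytes and endothelium, 3 of each, stayed at or below 7.36, 1.05 and 1.83 FPKM.

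The members lie at separate places in the genome (GRCh38, GENCODE 29). TGFB1 is on chr19:41301587-41353911, TGFB2 on chr1:218346235-218444619, INHBA on chr7:41667168-41705834, INHBE on chr12:57452323-57459280 and MSTN on chr2:190055697-190062729. LTBP1 is on chr2:32946972-33399509, FST on chr5:53480409-53487134 and TGFBI on chr5:136028895-136063818, while LTBP2 (chr14:74498170-74612378) and TGFB3 (chr14:75958099-75982991) share chromosome 14. Some members overlap other genes. The authors describe their mRNA sequencing as directional, but how their counting treated strand is not given in the sources used here. TGFB2 shares 1371 of its 5151 exon bases with TGFB2-OT1, a noncoding transcript of the same strand, and TGFB1 shares 215 of 3238 with HNRNPUL1 of the opposite strand, so the levels of TGFB2 and TGFB1 are uncertain. The genes C2orf88 and IFT43 lie across MSTN and TGFB3 and share 0 exon bases with them.

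The 3' UTRs of INHBA, INHBE and TGFBI, the stretches after the coding sequence where small RNAs pair, each hold 1 copy of the 7-base word TGAAGCA. The word was chosen because an earlier look at these libraries had connected it with lower values under KDM3A-sh2, so its presence in a member is a description and supports nothing. The sites are shown here because the 3 genes that hold the word did not all move the same way in RD. In Rh30 INHBE and TGFBI fell and INHBA was not tested. They stand in the longest annotated 3' UTR of each gene, in GENCODE 29 sequence of the transcript's strand, with the word in capitals:
INHBA (base 215 of 4536, chr7:41689419-41689445, minus strand): ggctcagagaTGAAGCAgtgaaagaga
INHBE (base 395 of 1160, chr12:57457233-57457259, plus strand): ccagcaggctTGAAGCAgggtaagcag
TGFBI (base 3 of 592, chr5:136063227-136063245, plus strand): ctTGAAGCActacaggagg

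The other 7 members hold no copy of the word in these UTRs. Its 6-base parts TGAAGC or GAAGCA are found in TGFB2, TGFB3, LTBP2 and MSTN, and neither part is found in TGFB1, FST and LTBP1. Over all genes tested with a 3' UTR of at least 50 bases, the word was present in 2069 genes (16.7%) in RD and 2006 (16.9%) in Rh30. These libraries were also the ones from which the word was chosen, so the following shares describe that choice and are no test of it. Of the genes with the word, 30.4% were lower and 19.3% higher with KDM3A-sh2 in RD, and 28.2% and 11.6% in Rh30. Among genes with neither 6-base part, 19.9% were lower and 28.8% higher in RD, and 10.8% and 21.1% in Rh30.

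The first comparison set KDM3A-sh2 against Scramble in RD cells. Among the ligands, INHBE and TGFB2 rose and INHBA fell, and myostatin rose slightly. LTBP1 and FST rose, and LTBP2 and TGFBI fell. All 10 members passed the limit of a mean of 1 FPKM and were tested. A gene was called at an adjusted p below 0.05 in limma on log2(FPKM + 1), a scale that understates the fold change of low genes. By this test 5 members were higher, 3 lower and 2 (TGFB1 and TGFB3) were not called, against 21.6% of all 17988 genes tested called higher and 19.5% called lower. The median log2 fold change was 0.17 over the members and 0.01 over all genes tested. In 8 of the 10 members no KDM3A-sh2 library lay within the range of the Scramble libraries, which was so for 53.4% of all genes tested. In a bulk sample, fewer cells carrying a transcript and less of it in each cell cannot be told apart.

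In Rh30 cells the same comparison gave another picture. TGFB2, INHBE and MSTN, which had risen in RD, fell, and so did TGFB1 and TGFBI. LTBP1 and FST rose again. INHBA, with a mean below 1 FPKM, was not tested, and of the other 9 members 2 were higher, 5 lower and 2 (TGFB3 and LTBP2) not called, against 15.3% of 17803 genes called higher and 13.2% called lower. The median log2 fold change was -0.24 over the 9 members and 0.03 over all genes tested. Groups did not overlap in 8 of the 9 members and in 45.8% of all genes tested.

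**Figure D1:**
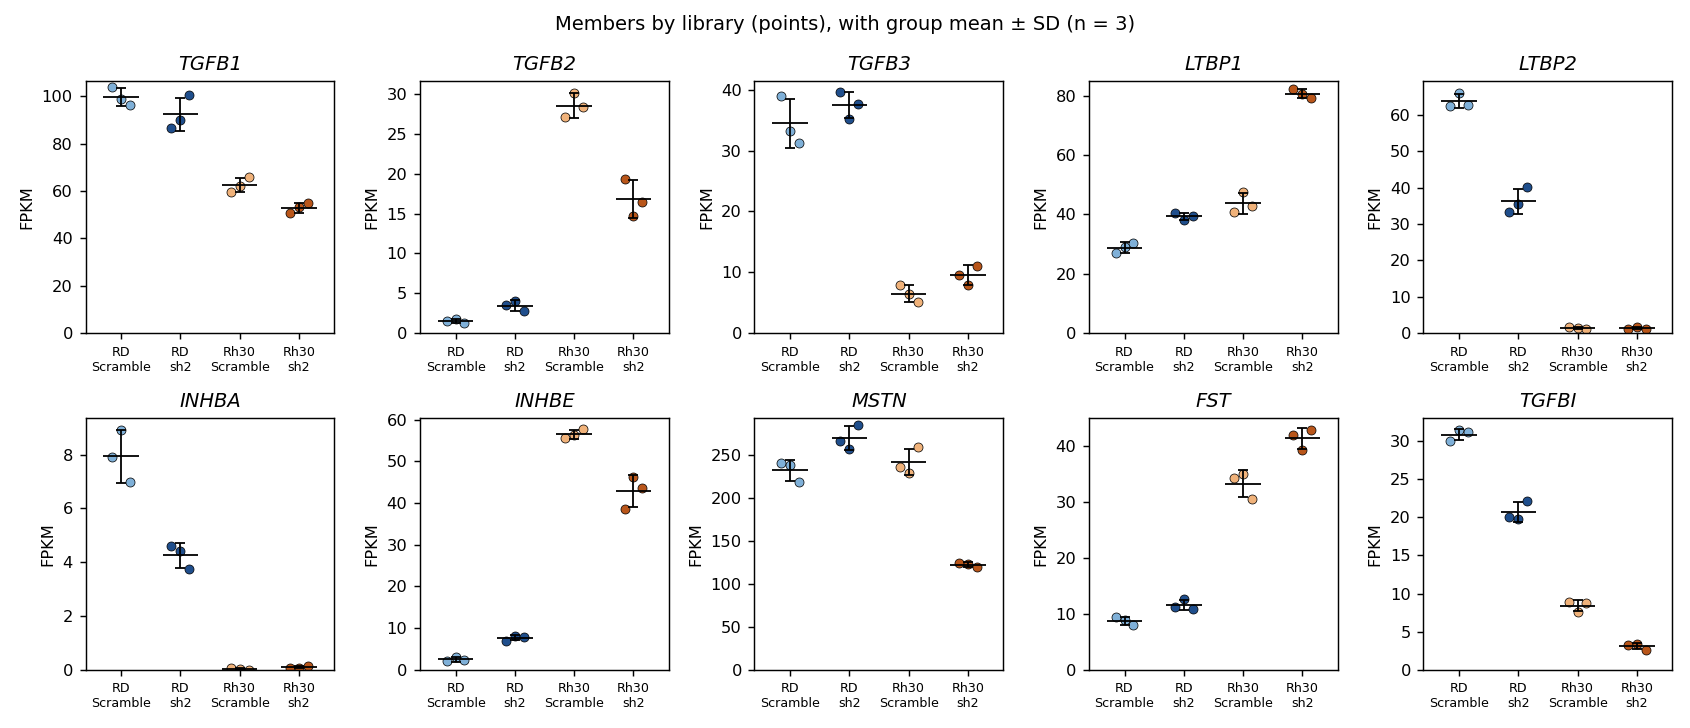
FPKM (linear axes starting at 0) of each member in the 4 groups, where points are the 3 libraries and lines and bars the group mean ± SD. INHBE and TGFB2 are low in RD and high in Rh30, INHBA and LTBP2 the reverse, and MSTN falls from a mean of 242 to 122 FPKM in Rh30.

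TGFB1 was the most abundant of the TGF-beta genes in every library. In RD it stood at 104, 98.7 and 96.3 FPKM with Scramble and at 86.6, 90.0 and 100.35 with KDM3A-sh2. These ranges overlap, and the log2 fold change of -0.11 had a 95% interval of -0.26 to 0.04 (adjusted p = 0.196). The third KDM3A-sh2 library is the highest of its group. Without that library the change was -0.17 with an adjusted p of 0.0373. In Rh30 TGFB1 was at 59.7, 62.1 and 65.9 FPKM with Scramble and at 50.5, 53.2 and 54.9 with KDM3A-sh2. There the groups were separate and TGFB1 fell by 0.24 on the log2 scale (SE 0.05, adjusted p = 0.0181), a call that was lost without the first (adjusted p = 0.0625) or the second (0.0519) KDM3A-sh2 library. HNRNPUL1, which shares some of its exon bases, averaged 332.5 FPKM with Scramble and 239 with KDM3A-sh2 in RD, and 373 and 339 in Rh30, and its part in the TGFB1 values was not tested.

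TGFB2 moved in opposite directions in the lines. In RD, where it was barely expressed, it was at 1.55, 1.74 and 1.23 FPKM with Scramble and at 3.56, 4.03 and 2.76 with KDM3A-sh2. It thus rose 2.29-fold in mean FPKM (log2 fold change 0.82, SE 0.15, adjusted p = 0.00501), with all 3 knockdown libraries above the controls. In Rh30 it was at 27.1, 30.2 and 28.4 FPKM with Scramble and at 19.4, 14.7 and 16.5 with KDM3A-sh2, all 3 below the controls. Its mean there was 0.590 of the control (log2 fold change -0.74, SE 0.10, adjusted p = 0.00301). TGFB2-OT1, which shares part of its exons, averaged 4.95 FPKM with Scramble and 3.65 with KDM3A-sh2 in Rh30. In RD it was near 0 with Scramble and averaged 0.637 FPKM with KDM3A-sh2, and its part in the TGFB2 values was not tested.

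TGFB3 did not pass the test in either line. In RD it was at 39.0, 33.2 and 31.2 FPKM with Scramble and at 39.7, 35.3 and 37.6 with KDM3A-sh2, and these ranges overlap (log2 fold change 0.12, 95% interval -0.09 to 0.33, adjusted p = 0.307). In Rh30 it was at 7.89, 6.42 and 5.14 FPKM with Scramble and at 9.61, 7.93 and 11.1 with KDM3A-sh2. Those ranges come close without overlapping, and the log2 fold change of 0.50 had an interval of 0.11 to 0.89 and an adjusted p of 0.063. The first Scramble library was the highest of its group, and without it the change was 0.63 (adjusted p = 0.0418).

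LTBP1 encodes a matrix protein that binds latent TGF-beta covalently and holds it in the matrix. The RD libraries had 27.1, 28.9 and 30.5 FPKM with Scramble and 40.4, 38.2 and 39.6 with KDM3A-sh2. Those of Rh30 had 40.9, 47.6 and 42.8 FPKM with Scramble and 82.3, 80.7 and 79.2 with KDM3A-sh2. All 6 knockdown libraries were above the controls of their line. LTBP1 rose in RD by 0.44 on the log2 scale (SE 0.06, adjusted p = 0.00103) and in Rh30 by 0.87 (SE 0.06, adjusted p = 0.000258), which is 1.36-fold and 1.84-fold in mean FPKM.

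LTBP2 is a relative that does not bind latent TGF-beta and associates with fibrillin and elastic fibres. LTBP2 in RD was at 62.6, 66.1 and 62.8 FPKM with Scramble and at 33.2, 35.4 and 40.1 with KDM3A-sh2. All knockdown libraries were below the controls, and LTBP2 fell by 0.80 on the log2 scale (SE 0.07, adjusted p = 0.000228). In Rh30 it was close to the limit of testing in all 6 libraries, at 1.62, 1.49 and 1.02 FPKM with Scramble and at 1.23, 1.56 and 1.19 with KDM3A-sh2. The groups overlap there, and the fold change of -0.03 (interval -0.41 to 0.36, adjusted p = 0.917) changed sign with the library left out.

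INHBA encodes the inhibin beta A subunit, which forms activin A. In RD it was at 7.92, 8.93 and 6.97 FPKM with Scramble and at 4.61, 4.42 and 3.74 with KDM3A-sh2. The groups are separate, and INHBA fell by 0.77 on the log2 scale (SE 0.11, adjusted p = 0.00202), to 0.536 of the control mean. In Rh30 INHBA was near 0, at 0.0676, 0.0245 and 0.00833 FPKM with Scramble and at 0.0719, 0.0709 and 0.138 with KDM3A-sh2. No fold change is given for these values, since neither group reached the limit of 1 FPKM.

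INHBE encodes the inhibin beta E subunit of activin E, a protein known mainly from liver. In RD it was at 1.99, 3.15 and 2.29 FPKM with Scramble and at 6.98, 8.14 and 7.85 with KDM3A-sh2. This 3.09-fold rise in mean FPKM (log2 fold change 1.33, SE 0.14, adjusted p = 0.000452) was the largest change of a member in RD on the log2 scale. In Rh30, at a much higher level, INHBE was at 55.6, 56.4 and 57.7 FPKM with Scramble and at 38.6, 46.2 and 43.7 with KDM3A-sh2. It fell there to 0.758 of the control mean (log2 fold change -0.40, SE 0.07, adjusted p = 0.00709), with no overlap. Of the genes that hold the word shown above, INHBE rose in RD while INHBA and TGFBI fell. In Rh30 INHBE and TGFBI fell, and INHBA was not tested there.

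MSTN encodes myostatin and had the highest level of the 10 genes in all 4 groups, above 90.8% to 96.1% of the genes that reached 1 FPKM. In RD it was at 241, 238 and 219 FPKM with Scramble and at 267, 257 and 285 with KDM3A-sh2. The groups do not overlap, and MSTN rose 1.16-fold in mean FPKM (log2 fold change 0.21, SE 0.05, adjusted p = 0.0188). This small change lost its call without the third Scramble library, the lowest of its group (0.17, adjusted p = 0.0502). In Rh30 MSTN was at 236, 229.7 and 259 FPKM with Scramble and at 124, 124 and 119 with KDM3A-sh2, and it fell by 0.97 on the log2 scale (SE 0.05, adjusted p = 0.000107), to 0.507 of the control mean. Of the muscle markers listed above, 1 was called higher and 5 lower in RD and 3 higher and 1 lower in Rh30, and their part in the MSTN values was not tested.

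FST encodes follistatin. Its level in RD was 9.34, 8.94 and 7.93 FPKM with Scramble and 11.1, 12.6 and 10.9 with KDM3A-sh2. Its level in Rh30 was 34.2, 35.0 and 30.5 FPKM with Scramble and 42.0, 39.2 and 42.8 with KDM3A-sh2. In both lines the 3 knockdown libraries were the highest. FST rose by 0.37 in RD (SE 0.09, adjusted p = 0.0144) and by 0.31 in Rh30 (SE 0.07, adjusted p = 0.0158) on the log2 scale. In Rh30 the call was lost without the first (adjusted p = 0.0562) or the third (0.0521) KDM3A-sh2 library.

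TGFBI encodes a secreted matrix protein that binds integrins and takes its name from its induction by TGF-beta. RD cells had TGFBI at 30.0, 31.4 and 31.2 FPKM with Scramble and at 20.0, 19.8 and 22.2 with KDM3A-sh2. Rh30 cells had it at 8.92, 7.61 and 8.75 FPKM with Scramble and at 3.21, 3.40 and 2.64 with KDM3A-sh2. TGFBI was the only member called lower in both lines. It fell by 0.56 in RD (SE 0.06, adjusted p = 0.000444) and by 1.21 in Rh30 (SE 0.11, adjusted p = 0.000572) on the log2 scale, which left 0.670 and 0.366 of the control means.

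**Figure D2:**
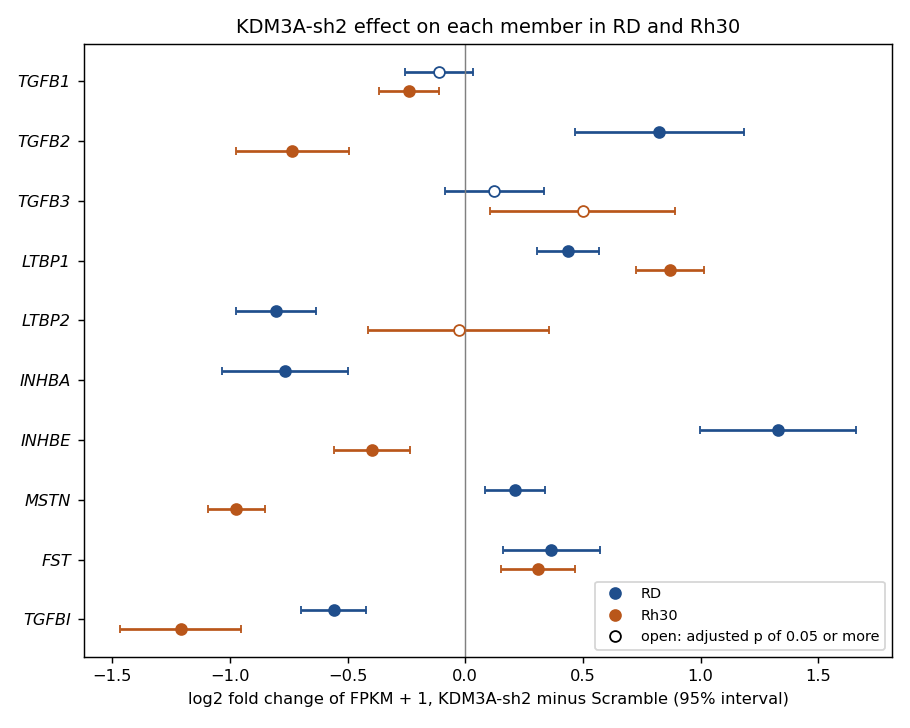
Log2 fold change of FPKM + 1 between KDM3A-sh2 and Scramble for each member, in RD (blue) and Rh30 (orange), with 95% intervals; open points were not called. TGFB2, INHBE and MSTN lie on opposite sides of 0 in the lines, while LTBP1 and FST lie above 0 and TGFBI below 0 in both.

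Whether KDM3A-sh2 acted differently in the lines was tested as the interaction of shRNA and line over all 12 libraries, where a positive value means a more positive change in Rh30. Over the 18517 genes tested, which were not limited to those tested in both lines, 14.4% had a positive and 13.4% a negative difference called. Of the 9 members tested in both lines 2 had a positive difference called, 4 a negative one and 3 none. The differences of INHBE (-1.72, SE 0.16, adjusted p = 2.26e-05), TGFB2 (-1.56, SE 0.18, adjusted p = 0.000112) and MSTN (-1.19, SE 0.08, adjusted p = 2.47e-06) were those of genes called in opposite directions. TGFBI fell further in Rh30 on the log2 scale (-0.65, SE 0.12, adjusted p = 0.00207), though in plain FPKM its mean went from 30.9 to 20.7 in RD cells and, in Rh30, from 8.43 to 3.08, so that the drop was larger in RD on that scale. LTBP1 rose further in Rh30 (0.43, SE 0.08, adjusted p = 0.00292). The positive difference of LTBP2 (0.78, SE 0.15, adjusted p = 0.00304) sets a decrease in RD against a level near 1 FPKM in Rh30. INHBA entered this test through its RD level alone, and its value (0.85, SE 0.15, adjusted p = 0.00184) restates the decrease in RD. For FST the difference was -0.06 (interval -0.30 to 0.18), for TGFB1 -0.13 (-0.31 to 0.06) and for TGFB3 0.38 (-0.07 to 0.82), none of them called.

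Of the 15970 genes tested in both lines, 1040 (6.51%) were called higher in both, 1093 (6.84%) lower in both, 319 (2.00%) higher in RD and lower in Rh30 and 252 (1.58%) the reverse. Of the 9 members tested in both, FST and LTBP1 were higher in both, TGFBI was lower in both, TGFB2, INHBE and MSTN were higher in RD and lower in Rh30, and 0 showed the reverse.

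The Scramble libraries were also compared with each other, to describe the levels the lines start from. These are the same libraries that served as controls above, so the line difference and the knockdown effects are not independent. In RD the order of mean levels was MSTN (233 FPKM), TGFB1 (99.6), LTBP2 (63.8), TGFB3 (34.5), TGFBI (30.9), LTBP1 (28.9), FST (8.74), INHBA (7.94), INHBE (2.47) and TGFB2 (1.50). The ranges of TGFB3 and TGFBI, of TGFBI and LTBP1, and of FST and INHBA overlap, so that these neighbours do not differ beyond their spread. In Rh30 the order was MSTN (242 FPKM), TGFB1 (62.6), INHBE (56.5), LTBP1 (43.8), FST (33.2), TGFB2 (28.6), TGFBI (8.43), TGFB3 (6.48), LTBP2 (1.38) and INHBA (0.0335). Only TGFBI and TGFB3 overlap there.

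By limma 4 members (INHBE, TGFB2, FST, LTBP1) were higher in Rh30 Scramble and 5 (LTBP2, INHBA, TGFB3, TGFBI, TGFB1) higher in RD Scramble, against 35.0% and 39.6% of all 18357 genes tested. In 9 of the 10 members the lines did not overlap, as in 77.5% of all genes tested. INHBE was 22.9-fold (log2 difference 4.06, SE 0.12, adjusted p = 1.98e-07) and TGFB2 19.0-fold (3.56, SE 0.10, adjusted p = 1.39e-07) higher in Rh30 in mean FPKM. In the other direction LTBP2 was 46.3-fold (-4.78, SE 0.11, adjusted p = 5.39e-08) and TGFB3 5.32-fold (-2.26, SE 0.15, adjusted p = 8.6e-06) higher in RD. INHBA, at a mean of 0.0335 FPKM in Rh30 Scramble, entered this comparison through its RD level alone. Its log2 difference of -3.11 and its place in the counts above restate that level. MSTN was the member that did not differ by this test, with a log2 difference of 0.05 (interval -0.09 to 0.20, adjusted p = 0.435). Rescaling each library to the same sum moves the median of all genes by -0.11 in this comparison, and MSTN then had a difference of -0.06.

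The level of INHBE can be set beside its neighbours on chromosome 12. Of the 43 other protein-coding genes tested within 1000 kb of its start, 35 were higher in Rh30 Scramble and 3 lower, with a median log2 difference of 2.64. Of all 12744 protein-coding genes tested, 4355 were higher and 5923 lower, with a median of -0.13. GLI1, 7.81 kb away, averaged 2.79 FPKM in RD and 163 in Rh30, and CDK4, 304 kb away, 655 and 14660 FPKM. KDM3A-sh2 changed INHBE by -0.40 on the log2 scale in Rh30, where CDK4 had -0.07 and GLI1 -0.34. The part of the neighbours' shared difference in the INHBE level was not tested. GLI1 and CDK4 were chosen after their values were seen.

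**Figure D3:**
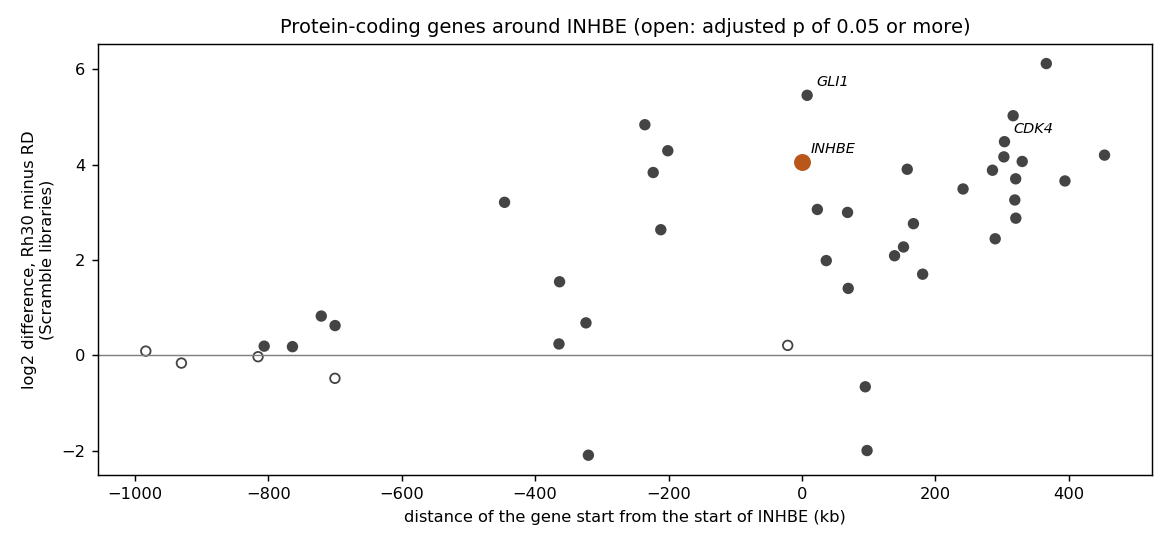
Log2 difference between Rh30 and RD Scramble libraries (vertical axis) of the protein-coding genes tested within 1000 kb of INHBE, by distance of their start in kb (horizontal axis); open points were not called. Of the 43 neighbours 35 were called higher in Rh30, and INHBE (orange) lies among them at 4.06.

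Ratios between members within a library do not depend on its scaling. TGFB2 made up 1.11% ± 0.18 (SD, n = 3) of the summed FPKM of the TGF-beta genes in RD Scramble and 2.61% ± 0.59 in RD KDM3A-sh2, and 29.3% ± 1.17 and 21.2% ± 2.75 in Rh30. The groups did not overlap in either line. The sum itself averaged 136 FPKM and 133 in RD, with overlapping groups, and 97.6 and 79.3 in Rh30, where all knockdown libraries were below the controls. LTBP1 per TGFB1 was 0.290 ± 0.028 with Scramble and 0.428 ± 0.036 with KDM3A-sh2 in RD. In Rh30 it was 0.701 ± 0.060 and 1.53 ± 0.094, and neither line had overlapping groups. LTBP1 supplied 31.1% of the summed FPKM of LTBP1 and LTBP2 in RD Scramble and 52.1% in RD KDM3A-sh2, and 96.9% and 98.4% in Rh30. The shares in the RD KDM3A-sh2 libraries were 54.8%, 51.9% and 49.7%, so the levels of LTBP1 and LTBP2 overlap there.

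MSTN per FST, a ligand set beside its antagonist, was 25.8, 26.7 and 27.6 in RD Scramble and 23.9, 20.4 and 26.1 in RD KDM3A-sh2, and the groups overlap at the upper end. In Rh30 it was 6.91, 6.55 and 8.49 with Scramble and 2.96, 3.15 and 2.79 with KDM3A-sh2, with every knockdown library below the controls. By the exact two-sided permutation test over libraries p was 0.2 in RD and 0.1 in Rh30, where 0.1 is the smallest value that 3 against 3 libraries can give.

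**Figure D4:**
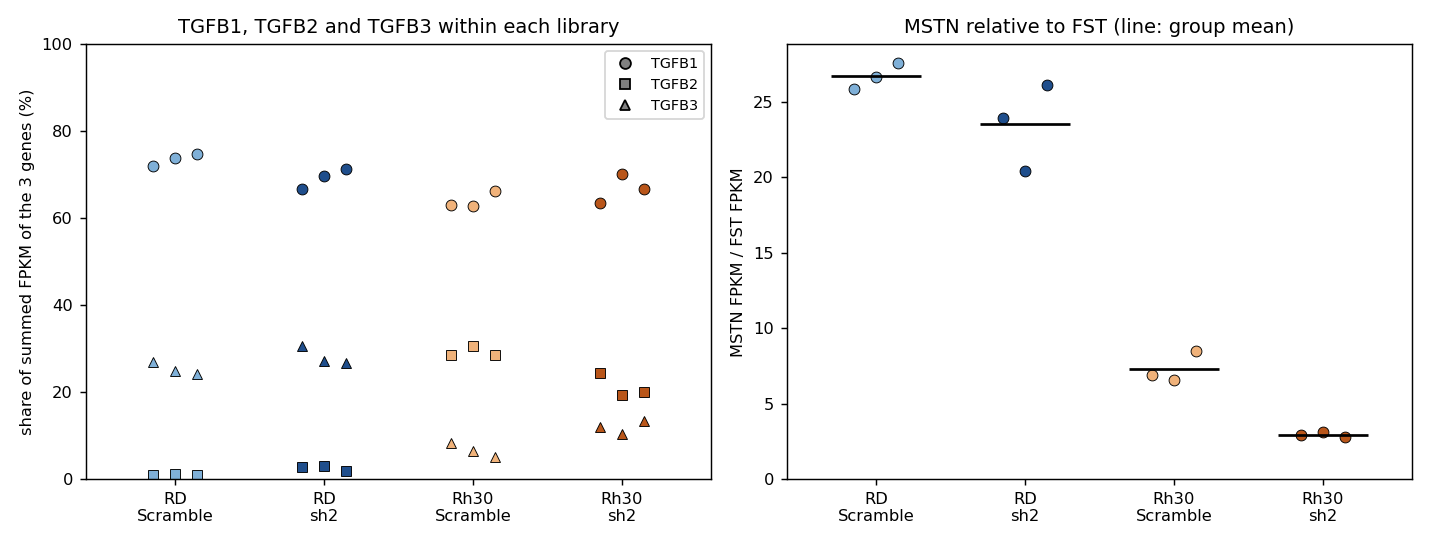
Left, the share of TGFB1, TGFB2 and TGFB3 in their summed FPKM in each library (percent); right, MSTN FPKM divided by FST FPKM in each library, with the group mean as a line. TGFB2 holds 28.5% to 30.6% in Rh30 Scramble and at most 3.12% in RD, and MSTN per FST in Rh30 goes from 6.55 to 8.49 down to 2.79 to 3.15.

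Beyond the members, 61 further genes of the pathway were listed by role. In RD 52 of them were tested, of which 25 were higher, 11 lower and 16 not called, with a median log2 fold change of 0.19. In Rh30 49 were tested, of which 2 were higher, 24 lower and 23 not called, with a median of -0.20. The shares of all genes given above for each line are the background for these counts. The lists were chosen with earlier results of these data known, so the counts by role here and below describe the lists and test nothing. By the interaction, 14.4% of all 18517 genes tested had a positive and 13.4% a negative difference called. That set was not limited to genes tested in both lines. Of the 47 listed genes tested in both lines, 25 had a more negative change in Rh30 by the interaction and 3 a more positive one. Another 6 entered the interaction through the level in 1 line and are not counted.

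Of the genes of latency and activation, which store TGF-beta in the matrix or release it, 8 of 15 were higher and 4 lower in RD, and 1 of 13 was higher and 7 lower in Rh30. FURIN, the protease that cleaves the TGF-beta precursor, rose in RD from a mean of 28.6 to 55.7 FPKM (log2 fold change 0.94, adjusted p = 9.03e-05) and was the only gene of these lists called higher in both lines. LTBP4, another binding protein, fell in RD from 28.2 to 12.5 FPKM (-1.11, adjusted p = 0.000296). In Rh30 THBS1, the activator thrombospondin 1, fell from 75.3 to 34.2 FPKM (-1.12, adjusted p = 9.71e-05) and ITGB3, an integrin beta chain, from 10.5 to 4.39 FPKM (-1.10, adjusted p = 0.000188). Both were also called lower in RD, by smaller amounts (THBS1 -0.16, adjusted p = 0.0484, and ITGB3 -0.16, adjusted p = 0.0189).

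Of the other ligand genes 1 of 7 reached the limit of testing in RD and 2 in Rh30, and 0 were called. The antagonist FSTL3, a relative of follistatin that binds activins and myostatin, rose in RD from 23.5 to 29.6 FPKM (0.32, adjusted p = 0.00238) and fell in Rh30 from 17 to 8.24 FPKM (-0.96, adjusted p = 0.000411). Of the other antagonist genes, DCN alone was tested in RD (0.49, adjusted p = 0.152) and BAMBI alone in Rh30 (0.25, adjusted p = 0.193). Neither was called.

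Of the 8 receptor genes 5 were higher and 2 lower in RD, and 0 higher and 2 lower in Rh30. In RD the largest changes called were those of the coreceptor TGFBR3, from 20.7 to 30.1 FPKM (0.52, adjusted p = 0.000588), and of ACVR1C, a type I receptor, from 1.21 to 2.12 FPKM (0.49, adjusted p = 0.0199). In Rh30 both kinases of the TGF-beta receptor fell, TGFBR1 from 71.5 to 53.0 FPKM (-0.42, adjusted p = 0.00188) and TGFBR2 from 21.4 to 16.2 FPKM (-0.38, adjusted p = 0.00207). TGFBR1 fell in RD too (-0.36, adjusted p = 0.00767). Among the 10 SMADs and co-regulators 1 was higher and 3 lower in RD, and 0 higher and 4 lower in Rh30. SMURF2, a ubiquitin ligase that acts on receptors and SMADs, rose in RD from 80.6 to 140.2 FPKM (0.79, adjusted p = 2.36e-05). TGIF1, a corepressor, fell in both lines, in RD by 0.36 on the log2 scale (adjusted p = 0.000946) and in Rh30 cells by 0.33 (0.00343), and the inhibitory SMAD7 fell in Rh30 from 10.0 to 7.45 FPKM (-0.39, adjusted p = 0.0183) and also fell in RD (-0.32, adjusted p = 0.0454).

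Genes known as targets of TGF-beta in other cells were higher in RD in 10 of 16 and lower in 2, and in Rh30 they were higher in 1 of 14 and lower in 10. The collagen I genes were the 2 with the largest change in RD, COL1A2 from 0.741 to 4.37 FPKM (1.61) and COL1A1 from 125 to 303 FPKM (1.27, adjusted p = 1.24e-05). COL1A2 was below 1 FPKM in every RD Scramble library and passed the limit of testing through the KDM3A-sh2 libraries. Its call, counted among the 10, therefore restates its level in those libraries. In Rh30 TAGLN, an actin-binding protein, fell from 16.95 to 5.44 FPKM (-1.48, adjusted p = 0.000122) and CTGF, a matricellular protein, from 22.4 to 7.78 FPKM (-1.41, adjusted p = 5.41e-05). Of the 14 targets tested in both lines, 10, COL1A2 among them, had a more negative change in Rh30 by the interaction and 1 a more positive one. Over all 18517 genes tested, 13.4% had a negative and 14.4% a positive difference called. Of the 47 listed genes tested in both lines, 11 (23.4%) were called higher in RD and lower in Rh30, among them CTGF, TAGLN, COL1A1, TGFBR2 and FSTL3, and 0 the reverse. Another 8 (17%) were called lower in both, as TGFBI was, among them THBS1, ITGB3, TGFBR1, SMAD7, TGIF1 and the targets PMEPA1 and JUNB, and FURIN was called higher in both.

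**Figure D5:**
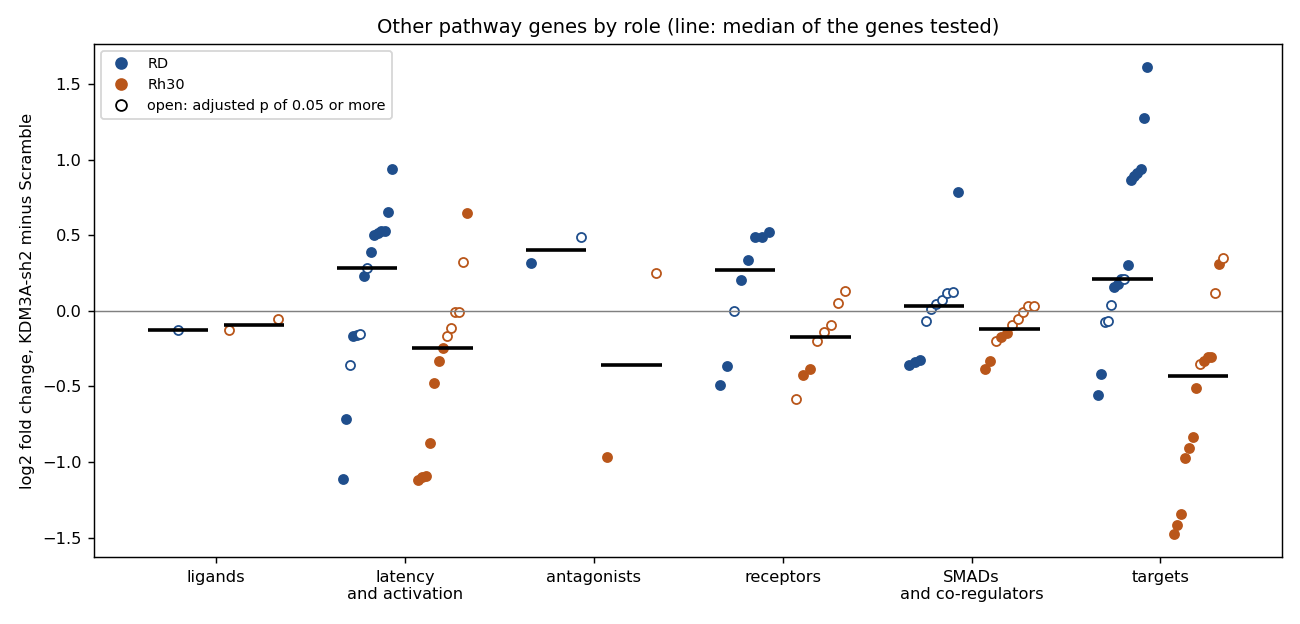
Log2 fold change between KDM3A-sh2 and Scramble of the other pathway genes tested, by role, in RD (blue) and Rh30 (orange), with the median of each role as a black line and open points for genes not called. The medians of the targets are 0.21 in RD and -0.43 in Rh30, and those of latency and activation 0.28 and -0.25.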

How the data were processed

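RNA-seq was done on 12 libraries, 3 per group. The deposited values are FPKM, which the authors computed with Cufflinks after alignment to GRCh38 with GSNAP. Their annotation release and strand setting are not given in the sources used here. Of 66095 rows, 120 repeats of 117 identifiers were left out (the row with the higher mean was kept), and the placeholder 999999999, present in 17 genes, was read as missing. No read counts were used, so the depth behind a value is unknown.

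The comparisons were KDM3A-sh2 against Scramble within a line, the difference of that effect between lines, and Rh30 Scramble against RD Scramble. Values entered limma-trend (limma 3.58.1, R 4.3.3) as log2(FPKM + 1). A gene was tested if it averaged 1 FPKM or more over the libraries compared. Tests were two-sided, with Benjamini-Hochberg adjustment over all of them and a threshold of 0.05. The code of the fit was also run on simulated data with independent noise in each library. That run, whose result is not given here, cannot show whether the replicates were separate cultures. Values and figures used Python 3.11.15, pandas 2.3.3 and matplotlib 3.10.9. GENCODE 29, which holds 86.3% of the identifiers, gave positions, exons and 3' UTRs.

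The members, pathway lists and markers were chosen with earlier results of these data known. The rule for naming took all 10 members, KDM3A, and in each role and line the 2 called genes with the largest change. Alternatives were a pseudocount of 0.1, no filter, a limit of 10 FPKM that 1 library had to reach, scaling to equal library sums or by median ratios, a per-gene test on unlogged FPKM, a replicate block, and each library left out.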

Additional observations from a re-analysis of the deposited data

Results flagged for a closer look

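The KDM3A-sh2 effect differed between the lines in 6 of the 9 members tested in both, by the interaction of shRNA and line in limma over all 12 libraries. Over the 18517 genes tested, which were not limited to those tested in both lines, 14.4% had a positive and 13.4% a negative difference called. Given as the log2 effect in Rh30 minus that in RD, the differences were -1.725 for INHBE, -1.560 for TGFB2, -1.186 for MSTN, -0.651 for TGFBI, 0.434 for LTBP1 and 0.776 for LTBP2. INHBA had 0.846, but it was not tested in Rh30 alone, so this value restates its decrease in RD. In INHBE, TGFB2 and MSTN every KDM3A-sh2 library was above the Scramble libraries in RD and below them in Rh30. LTBP1 and TGFBI moved the same way in both lines and by different amounts, and INHBA and LTBP2 were at or below 1.62 FPKM in every Rh30 library.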

How the results depend on the processing

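Most alternatives kept the direction and the side of the threshold of the members. With the filter of 10 FPKM 3 members were called higher in RD, where 7 were tested, and with a per-gene test on unlogged FPKM or with a replicate block 1 was called higher in Rh30. Leaving out 1 library at a time gave 1 to 3 members called higher in Rh30. The replicate number was a label only, since deviations of same-numbered libraries correlated at -0.0743 to 0.0559. Under the replicate block the calls of MSTN in RD (adjusted p = 0.0586) and FST in Rh30 (0.0535) were lost. MSTN in RD also lost its call without a filter (0.0515) and on unlogged FPKM (0.0696), as did TGFB1 (0.0544) and FST (0.0502) in Rh30 on unlogged FPKM. Signs turned in 4 results. On unlogged FPKM the difference between lines was 4.86 FPKM for TGFBI and 5.29 FPKM for FST, because there a change counts by its absolute size. Leaving out 1 library gave LTBP2 in Rh30 a log2 fold change of -0.14 to 0.048 and FST a difference between lines of -0.12 to 0.003. On the scale of equal sums MSTN had a line difference of -0.056. Apart from the construction named, the cause was not tested. The depth behind these values is unknown, which limits what can be said of INHBA and LTBP2 in Rh30.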
